A study of Homo sapiens with 10 samples.

Results

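The 10 insulin and IGF signaling genes described here are *IGF1R*, *INSR* and *IGF2R* (receptors), *IRS1* and *IRS2* (adaptors), and *IGFBP2*, *IGFBP3*, *IGFBP4*, *IGFBP5* and *IGFBP6* (secreted binding proteins). They were taken by name, and all 10 were found among the 60642 gene symbols of the expression table. Untreated cells of 5 human prostate cancer lines, LNCaP, DUCAP, VCAP, DU145 and PC3, gave 10 RNA-seq samples, since each line was sampled in 2 biological repeats. The cells were grown in RPMI without phenol red, with 5 to 10% fetal bovine serum, and harvested in exponential growth. Each line is a single established culture model, so the 2 repeats show the spread of a line and not that of prostate tumors. DUCAP and VCAP were derived from metastases of the same donor and are therefore not independent models. The unit is TPM, the abundance of a gene's transcripts per length on a scale with a fixed total per sample, so levels can be compared between genes. TPM keep no sequencing depth, and the reads behind a value are unknown. In bulk RNA, fewer cells that express a gene and less RNA per cell cannot be told apart.

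The insulin and IGF pathway couples nutrient and growth signals to metabolism, growth and survival. IGF1 and IGF2 bind the receptor tyrosine kinase IGF1R, insulin binds the related INSR, and the 2 receptors can form hybrids. The mannose 6-phosphate receptor IGF2R has no kinase and takes IGF2 into the cell for breakdown. The activated kinases phosphorylate the adaptors IRS1 and IRS2, which recruit PI3-kinase and so activate AKT. The IGFBP proteins bind the ligands outside the cell and limit or prolong their access to IGF1R. In prostate cancer the pathway is known as a growth and survival signal, and *IGFBP2* and *IGFBP3* have been followed as markers in tissue and serum.

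The samples matched the line names by most markers. *KRT8*, *KRT18* and *EPCAM*, genes of epithelial cells, were at 23.43 TPM or above in all 10 samples. *KLK3*, the gene of prostate-specific antigen, was at 28.34 TPM or above in LNCaP, DUCAP and VCAP and at most at 0.77 TPM in DU145 and PC3, although VCAP, at 28.34 and 45.25 TPM, was far below DUCAP. *ERG* was at 122.46 to 198.92 TPM in DUCAP and VCAP and at most at 0.19 TPM elsewhere, and *CAV1* reached at least 215.85 TPM in DU145 and PC3 and at most 0.78 TPM elsewhere. *TMPRSS2* went against its list in PC3, with 18.86 and 22.7 TPM. The leukocyte gene *PTPRC* was at most at 0.12 TPM and the endothelial gene *PECAM1* at most at 0.43 TPM in every sample, whereas the other endothelial gene examined, *VWF*, had 5.45 and 4.22 TPM in LNCaP, with no other line above 0.64 TPM. The part of these markers in the results was not tested. The mitochondrial genes held 32.1 to 36.0% of the TPM in DUCAP and VCAP and 12.7 to 22.5% in the other lines, which lowers the TPM of all other genes where that share is high.

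All 10 genes passed the filter of at least 1 TPM in at least 2 samples, as did 17520 genes in all. *IGFBP5* passed through PC3 alone and *IGFBP6* through DU145 and PC3 alone, so a difference between lines was built into their passing. Differences were tested with limma on log2(TPM + 1), in 1 fit over all 10 samples, with Benjamini-Hochberg adjustment at 0.05. For each gene the fit estimates 1 spread between repeats for all 5 lines. Every pair of lines therefore has the same SE, also where the repeats of 1 line lie far apart. A difference on this scale understates the change of a gene near 0 TPM. Lines are called not separated where the adjusted p was 0.05 or more, which does not show that their levels are equal. Among the 5 lines, 9 of the 10 genes differed by limma's F-test, beside 90.8% of all tested genes, and *INSR* did not pass (adjusted p = 0.28). The 9 adjusted p-values of limma's F-test lay between 6.6e-08 (*IGFBP6*) and 5.3e-05 (*IRS2*). The range from the lowest to the highest line mean had a median of 4.05 over the 10 genes on the log2 scale and of 1.69 over all tested genes, a description in which the wide ranges of *IGFBP5* and *IGFBP6* were built in by the filter. Of the other 8 genes, *IGFBP4* was at percentile 99.8 of the ranges of all tested genes, *IGFBP2* at 97.5, *IGFBP3* at 93.7 and *IGF1R* at 90.1, and *INSR* was lowest at percentile 7.97.

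**Figure D1:**
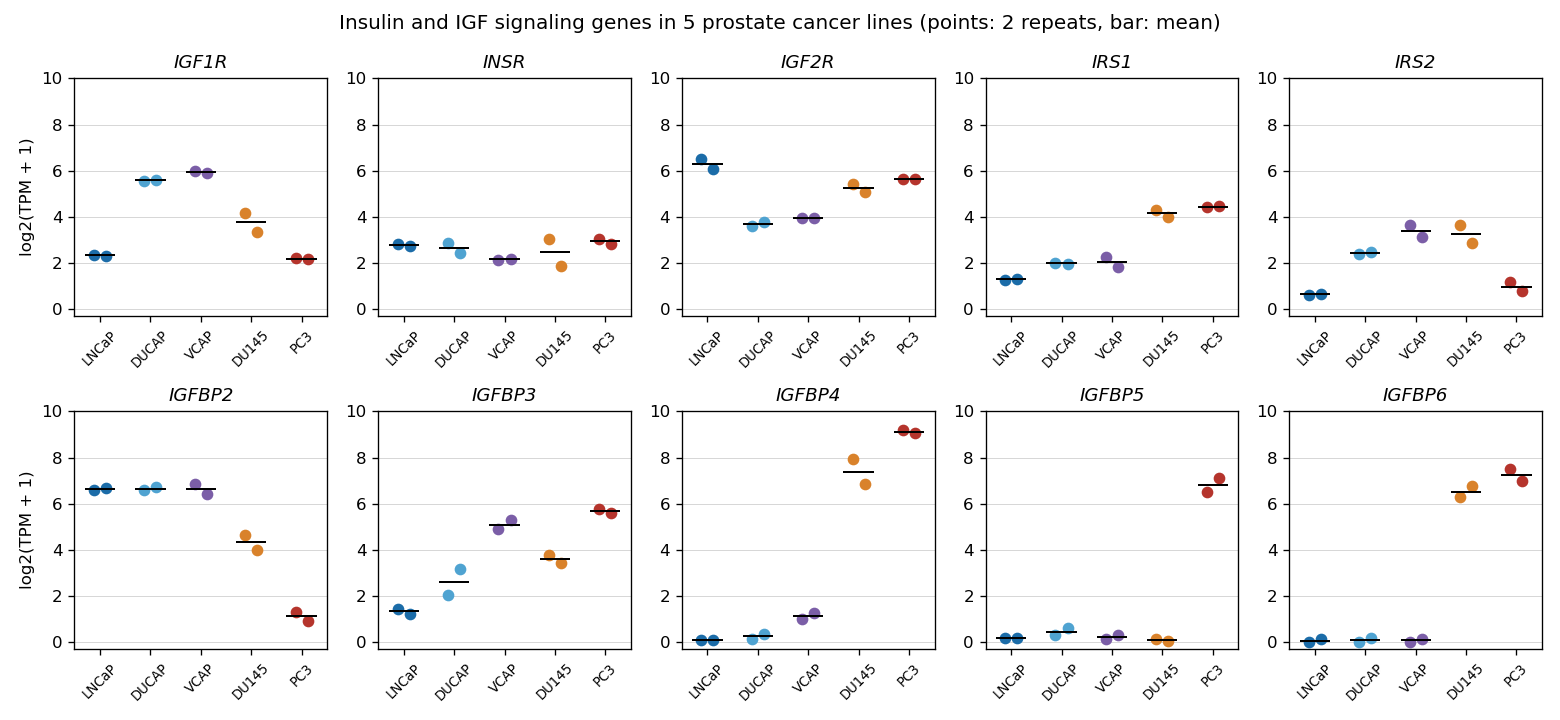
Level of each of the 10 genes in log2(TPM + 1) (vertical axis) in the 5 lines (horizontal axis), with 1 point per repeat and a bar at the mean of the 2 repeats. *INSR* stays near 1 level, *IGF1R* and *IGF2R* run in opposite directions over the lines, and *IGFBP4*, *IGFBP5* and *IGFBP6* go from near 0 to above 6.

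The genes lie on 8 chromosomes by the RefSeq annotation of GRCh38.p14, and only *IGFBP2* and *IGFBP5* are close neighbours. *IGFBP2* (chr2:216632828-216664436, plus strand) and *IGFBP5* (chr2:216672105-216695549, minus strand) are arranged tail to tail with 7668 bases between their ends. *IGF1R* spans chr15:98648539-98964530 and *IGFBP4* spans chr17:40443450-40457725. The RefSeq windows of 250 bases before an annotated transcript start (GRCh38.p14) are shown for 4 genes whose levels mark different lines, *IGF1R* (DUCAP and VCAP), *IGFBP2* (LNCaP, DUCAP and VCAP), *IGFBP4* (DU145 and PC3) and *IGFBP5* (PC3). They are the stretches chr15:98648289-98648538 (plus), chr2:216633170-216633419 (plus), chr17:40443200-40443449 (plus) and chr2:216695550-216695799 (minus). The *IGFBP2* window precedes the start of the representative (MANE Select) transcript, which lies inside the outer span of the gene given above, and for the other 3 genes the 2 starts are the same. Each is written 5′ to 3′ in the direction of transcription and ends at the base before that transcript's start, with the GC box GGGCGG (also as CCGCCC, its form on the other strand) and the TATA box TATAAA in capitals.
IGF1R: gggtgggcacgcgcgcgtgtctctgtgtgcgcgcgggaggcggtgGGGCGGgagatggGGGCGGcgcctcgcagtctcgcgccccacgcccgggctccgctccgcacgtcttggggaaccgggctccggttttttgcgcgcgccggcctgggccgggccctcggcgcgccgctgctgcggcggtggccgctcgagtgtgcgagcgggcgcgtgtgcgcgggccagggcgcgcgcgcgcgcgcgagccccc
IGFBP2: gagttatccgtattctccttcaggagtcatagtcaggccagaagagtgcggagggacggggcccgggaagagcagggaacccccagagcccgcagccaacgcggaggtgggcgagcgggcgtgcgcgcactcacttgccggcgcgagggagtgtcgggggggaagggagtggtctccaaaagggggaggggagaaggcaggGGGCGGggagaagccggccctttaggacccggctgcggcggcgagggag
IGFBP4: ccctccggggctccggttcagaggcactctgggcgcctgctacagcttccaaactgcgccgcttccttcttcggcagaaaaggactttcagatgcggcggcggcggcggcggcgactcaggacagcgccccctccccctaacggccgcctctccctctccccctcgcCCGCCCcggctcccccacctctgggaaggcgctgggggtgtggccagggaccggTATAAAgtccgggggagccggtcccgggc
IGFBP5: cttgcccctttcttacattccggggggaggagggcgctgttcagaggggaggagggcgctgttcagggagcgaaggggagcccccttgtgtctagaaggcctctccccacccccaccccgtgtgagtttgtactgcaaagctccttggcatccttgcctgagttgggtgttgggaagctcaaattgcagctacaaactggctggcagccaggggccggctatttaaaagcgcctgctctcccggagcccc

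These windows differ in base composition. The *IGF1R* window holds 48 CpG sites and has a GC content of 81.2%, and that of *IGFBP5* holds 8 CpG sites and has a GC content of 61.2%. Over all 35114 promoter windows the median is 11 CpG sites and 58% GC. Among the 10 genes, *IGFBP5* (8 sites) and *IGFBP6* (9 sites) are below that median, and the other 8 hold between 22 (*IGFBP2*) and 48 sites. A GC box was found in 9 of the 10 windows on either strand, *IGFBP5* being the exception, against 42.6% of all windows. The exact TATA box letters TATAAA occurred in 1 window, that of *IGFBP4*, 29 bases before the start, against 10.7% of all windows. Variants of these letters were not searched. The AP-1 letters TGANTCA were in none of the 10 (6.57% of all windows), and the FOXO letters TGTTTAC were in 1, *IGFBP6*, 186 bases before the start (2.98% of all windows). Such matches describe the letters of the window and not binding.

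The ligand genes were near 0 in these cells, apart from a low level of *IGF2* in PC3. *INS* was listed at 0 in all 10 samples. *IGF1* was at 0.57 and 0.45 TPM in LNCaP, at 0.37 and 0.11 TPM in DUCAP, and at most at 0.01 TPM in the other lines. *IGF2* reached 2.29 and 2.54 TPM in PC3 and at most 0.52 TPM in any other sample, and its value is uncertain where reads are shared with the overlapping readthrough gene *INS-IGF2*. Fetal bovine serum, which was in the medium of all samples, carries IGFs as protein, which RNA-seq does not measure.

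*IGF1R*, the receptor tyrosine kinase for IGF1 and IGF2, had its highest levels in DUCAP (46.47 and 47.95 TPM) and VCAP (62.5 and 57.99 TPM). It was at 17 and 9.09 TPM in DU145, at 4.13 and 3.98 TPM in LNCaP, and at 3.63 and 3.47 TPM in PC3. DUCAP and VCAP therefore stood above every other sample, and DU145 stood between them and the low pair of LNCaP and PC3. In the order of the line means, VCAP and DUCAP were not separated (limma, adjusted p = 0.26), nor were LNCaP and PC3 (adjusted p = 0.63). In neither pair did the repeats of the lines overlap. The shared SE carries the spread of DU145, whose repeats had a standard deviation of 0.59 on the log2 scale, against at most 0.08 in the other lines. DUCAP exceeded DU145 by 1.84 ± 0.24 (log2, SE; limma, adjusted p = 2.6e-04), and DU145 exceeded LNCaP by 1.41 ± 0.24 (adjusted p = 0.0012). DUCAP and VCAP are also the lines with the highest mitochondrial share and with the hepatocyte gene *ALB* at 14.29 to 27.79 TPM, against at most 0.85 TPM in the others. The part of *ALB* in this pattern was not tested.

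*INSR*, the insulin receptor, was low to moderate in all lines. Its levels were 6.1 and 5.68 TPM in LNCaP, 6.27 and 4.43 TPM in DUCAP, 3.42 and 3.56 TPM in VCAP, 7.2 and 2.7 TPM in DU145, and 7.16 and 6.16 TPM in PC3. Both the highest and the lowest of the 10 values came from DU145, so the repeats of that line spanned the whole range of the lines. None of the 10 pairs of lines passed the test for *INSR*. The largest difference of line means, PC3 against VCAP, was 0.77 on the log2 scale with an SE of 0.34 for any pair of lines, so a moderate difference could have been missed. Leaving out 1 DU145 repeat takes the spread of that line out of the fit, and the direction then depends on the repeat kept. On the log2 scale, LNCaP, DUCAP and VCAP minus DU145 and PC3 was 0.12 without DU145 repeat 1 and −0.45 without DU145 repeat 2.

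The balance of the 2 kinase receptors had the same order of lines as *IGF1R*. *IGF1R* transcripts per *INSR* transcript numbered 18.3 and 16.3 in VCAP, 7.41 and 10.8 in DUCAP, and 2.36 and 3.37 in DU145. In LNCaP (0.677 and 0.701) and PC3 (0.507 and 0.563) *INSR* was the more abundant. No repeat of 1 line fell within the values of another line for this ratio.

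*IGF2R*, the scavenger of IGF2, ran opposite to *IGF1R*. It was highest in LNCaP (88.52 and 65.83 TPM), followed by PC3 (48.38 and 48.9 TPM) and DU145 (42.4 and 32.99 TPM). VCAP (14.56 and 14.36 TPM) and DUCAP (11.26 and 12.62 TPM) were the low lines, below all samples of the other 3. LNCaP exceeded PC3 by 0.64 ± 0.18 (log2, SE; limma, adjusted p = 0.015), PC3 and DU145 were not separated (adjusted p = 0.11), and DU145 exceeded VCAP by 1.31 ± 0.18 (adjusted p = 3.3e-04). VCAP and DUCAP were not separated (adjusted p = 0.25). Over the 10 samples, Pearson's r between *IGF1R* and *IGF2R* was −0.93 on the log2 scale, a description over 5 lines whose paired repeats are not independent. *IGF2R* exceeded *IGF1R* by 21.4 and 16.5 times in LNCaP and by 13.3 and 14.1 times in PC3, and by 2.49 and 3.63 times in DU145. In DUCAP (0.242 and 0.263) and VCAP (0.233 and 0.248) the ratio was below 1.

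**Figure D2:**
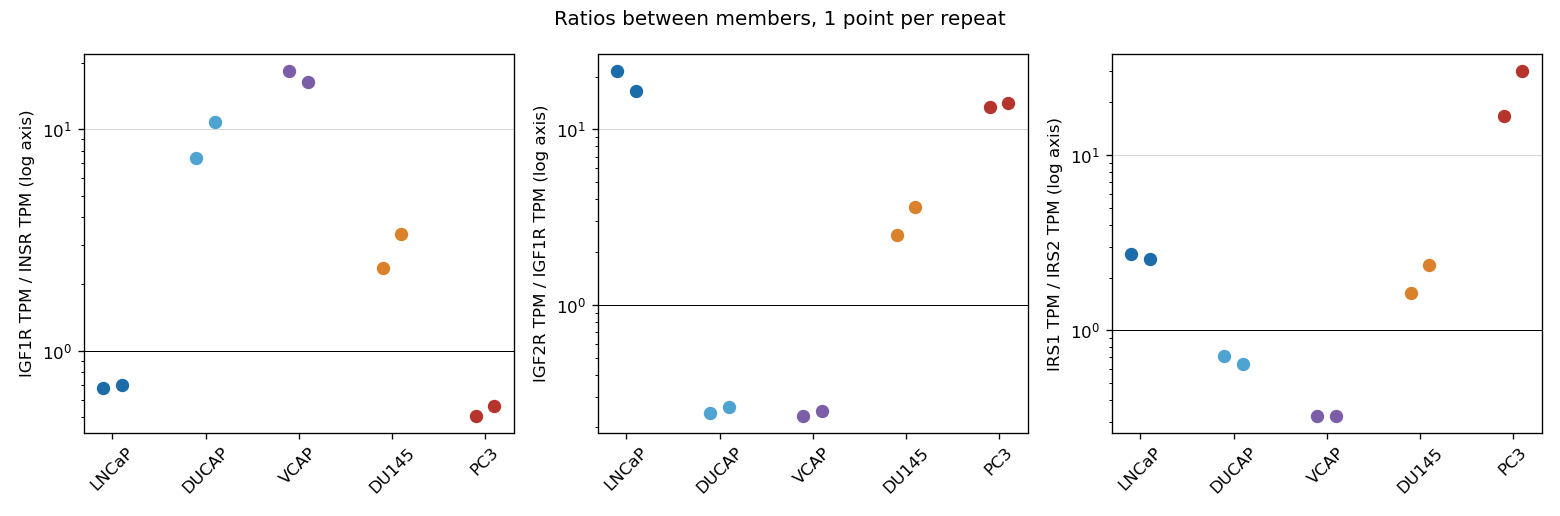
Ratios of TPM between *IGF1R* and *INSR*, *IGF2R* and *IGF1R*, and *IRS1* and *IRS2* (vertical axes, log scale) in the 5 lines (horizontal axis), with 1 point per repeat and a line at a ratio of 1. DUCAP and VCAP have the highest *IGF1R* to *INSR* ratios and the only ratios below 1 in the other 2 panels.

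*IRS1*, the docking protein that links both kinases to PI3-kinase, separated DU145 and PC3 from the other lines. It was at 18.64 and 15.08 TPM in DU145 and at 20.56 and 21.02 TPM in PC3. The other 6 samples had 1.41 and 1.47 TPM (LNCaP), 3 and 2.92 TPM (DUCAP), and 3.77 and 2.53 TPM (VCAP), so the 2 sets did not overlap. Neighbouring line means differed between DU145 and VCAP by 2.11 ± 0.19 (log2, SE; limma, adjusted p = 2.6e-05) and between DUCAP and LNCaP by 0.70 ± 0.19 (adjusted p = 0.012). PC3 and DU145 (adjusted p = 0.21) and VCAP and DUCAP (adjusted p = 0.85) were not separated.

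*IRS2*, the related adaptor, had another order. It was highest in VCAP (11.6 and 7.75 TPM) and DU145 (11.42 and 6.37 TPM), which were not separated (limma, adjusted p = 0.72), and DUCAP had 4.22 and 4.52 TPM. PC3 (1.23 and 0.7 TPM) and LNCaP (0.52 and 0.58 TPM) were low and were not separated (adjusted p = 0.35). DU145 exceeded DUCAP by 0.83 ± 0.28 (log2, SE; adjusted p = 0.033), and DUCAP exceeded PC3 by 1.46 ± 0.28 (adjusted p = 0.0023). *IRS1* transcripts outnumbered those of *IRS2* in PC3 (16.7 and 30.0 times), LNCaP (2.71 and 2.53 times) and DU145 (1.63 and 2.37 times). The reverse held in DUCAP, with ratios of 0.711 and 0.646, and in VCAP, with 0.325 and 0.326. *IRS4*, another adaptor gene of the family, was at most at 0.04 TPM in any sample.

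The 5 binding protein genes had the widest ranges of line means among the 10. *IGFBP2*, whose product binds both IGFs, was nearly level in LNCaP (95.41 and 100.96 TPM), DUCAP (94.64 and 105.34 TPM) and VCAP (113.11 and 84.92 TPM). It was at 24.29 and 14.78 TPM in DU145 and at 1.49 and 0.9 TPM in PC3. All samples of the first 3 lines stood above all samples of the others. The means of LNCaP, DUCAP and VCAP lay within 0.03 of each other (adjusted p = 0.95 for DUCAP against VCAP and 0.96 for DUCAP against LNCaP, limma), with an SE of 0.25 on the log2 scale. VCAP exceeded DU145 by 2.31 ± 0.25 (adjusted p = 8.3e-05) and DU145 exceeded PC3 by 3.2 ± 0.25 (adjusted p = 1.3e-05).

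*IGFBP3*, the main carrier of IGFs in serum, was highest in PC3 (52.76 and 47.7 TPM) and VCAP (29.08 and 37.59 TPM). DU145 had 12.7 and 9.83 TPM, DUCAP had 3.14 and 8.01 TPM, and LNCaP had 1.73 and 1.31 TPM. The order thus mixed the lines with high and low *IGFBP2*. PC3 and VCAP were not separated (limma, adjusted p = 0.17), and every later step of the order did, by 1.48 ± 0.34 (VCAP over DU145; log2, SE; adjusted p = 0.0053), 1.00 ± 0.34 (DU145 over DUCAP; adjusted p = 0.033) and 1.28 ± 0.34 (DUCAP over LNCaP; adjusted p = 0.011). The 2 DUCAP repeats differed by 2.55 times.

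*IGFBP4*, whose product inhibits IGF action, was the most abundant of the 10 genes in DU145 (241.83 and 112.9 TPM) and PC3 (577.24 and 527.91 TPM). It was at 1 and 1.37 TPM in VCAP, at 0.11 and 0.26 TPM in DUCAP and at 0.07 TPM in both LNCaP repeats. No sample of the low lines came near the lowest value of DU145. PC3 exceeded DU145 by 1.73 ± 0.31 (log2, SE; limma, adjusted p = 0.0015), DU145 exceeded VCAP by 6.26 ± 0.31 (adjusted p = 1.1e-06) and VCAP exceeded DUCAP by 0.88 ± 0.31 (adjusted p = 0.038), while DUCAP and LNCaP were not separated (adjusted p = 0.73). *PAPPA*, the gene of a protease that cleaves IGFBP4, was at most at 0.08 TPM in any sample.

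*IGFBP5*, a binding protein of the extracellular matrix, was found in quantity in PC3, at 88.58 and 136.33 TPM. In the other 8 samples it lay between 0.02 and 0.51 TPM. PC3 exceeded the next line, DUCAP, by 6.35 ± 0.21 (log2, SE; limma, adjusted p = 1.8e-07), and the other 4 lines were not separated from neighbour to neighbour (adjusted p from 0.37 to 0.9). PC3 was therefore the line with the highest *IGFBP5* and the lowest *IGFBP2*, the genes that lie next to each other on chromosome 2. The fibroblast gene *COL1A1* was also highest in PC3 (31.51 and 38.02 TPM, against at most 6.66 TPM elsewhere), while *COL1A2* was at most at 0.23 TPM and *DCN* at most at 0.79 TPM. *LUM*, another fibroblast gene, was highest in VCAP (5.35 and 5.12 TPM) and at 0.86 and 0.57 TPM in PC3. The summed TPM of the 4 fibroblast genes *COL1A1*, *COL1A2*, *LUM* and *DCN* ran from 32.69 to 39.25 in PC3 and from 1.01 to 7.03 in the other lines. In PC3 that sum was almost wholly *COL1A1*.

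*IGFBP6*, whose product prefers IGF2 over IGF1, was at 77.11 and 107.79 TPM in DU145 and at 181.38 and 127 TPM in PC3. In LNCaP, DUCAP and VCAP it was listed at 0 in 1 repeat of each line and at 0.08, 0.12 and 0.11 TPM in the other. PC3 exceeded DU145 by 0.73 ± 0.23 (log2, SE; limma, adjusted p = 0.024), DU145 exceeded DUCAP by 6.44 ± 0.23 (adjusted p = 2.1e-07), and the 3 low lines were not separated (adjusted p of 0.97 and 1 between neighbours). The macrophage gene *CD68* showed a similar division, with 73.97 to 101.13 TPM in DU145, 34.32 to 38.86 TPM in PC3 and at most 3.29 TPM in the others. *PTPRC*, which marks all leukocytes, was at most at 0.12 TPM in the same samples.

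The summed transcripts of *IGFBP1* to *IGFBP7* changed in amount and in make-up. The sum was 97.43 and 102.7 TPM in LNCaP, 98.22 and 114.35 TPM in DUCAP, and 143.39 and 124.55 TPM in VCAP. It was 356.01 and 245.36 TPM in DU145 and 901.69 and 840.19 TPM in PC3, above all of the other samples. *IGFBP2* made up 97.9 and 98.3% of the sum in LNCaP, 96.4 and 92.1% in DUCAP, and 78.9 and 68.2% in VCAP. In DU145 it made up 6.82 and 6.02%, and in PC3 0.165 and 0.107%. *IGFBP3* took 20.3 and 30.2% in VCAP, and *IGFBP4* took 67.9 and 46.0% in DU145 and 64.0 and 62.8% in PC3. *IGFBP6* took 21.7 and 43.9% in DU145 and 20.1 and 15.1% in PC3, where *IGFBP5* added 9.82 and 16.2%. *IGFBP1* (at most 0.28 TPM) and *IGFBP7* (at most 0.16 TPM) added almost nothing in any line.

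**Figure D3:**
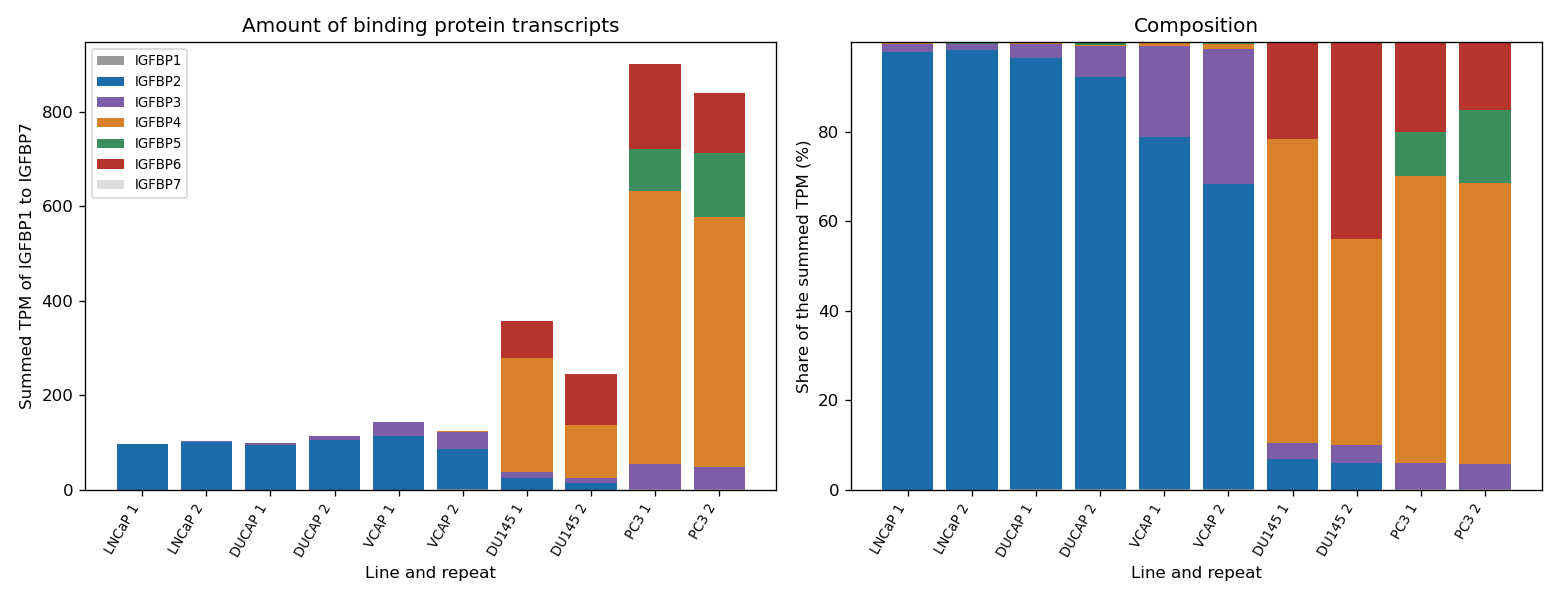
Summed TPM of *IGFBP1* to *IGFBP7* (left, vertical axis in TPM) and the share of each gene in that sum (right, vertical axis in %) in each of the 10 samples (horizontal axis, line and repeat), stacked by gene. *IGFBP2* fills most of the LNCaP, DUCAP and VCAP bars, and *IGFBP4*, *IGFBP6* and, in PC3, *IGFBP5* fill the taller DU145 and PC3 bars.

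The 5 lines were then compared as LNCaP, DUCAP and VCAP against DU145 and PC3, a division that the study also makes. With each line given the same weight, 8 of the 10 genes differed by limma, beside 74.4% of all tested genes. The 8 include *IGFBP5* and *IGFBP6*, which passed the filter only through PC3 or through DU145 and PC3. A difference in this direction was thus built in for both, and their p-values add no separate support. *IGF1R* and *IGFBP2* were higher in LNCaP, DUCAP and VCAP, beside 22.5% of all tested genes, and *IGF2R*, *IRS1*, *IGFBP3*, *IGFBP4*, *IGFBP5* and *IGFBP6* were lower, beside 51.9%. The median difference was −1.22 on the log2 scale over the 10 genes, *IGFBP5* and *IGFBP6* included, and −0.40 over all tested genes, which moved to 0.07 under quantile normalization and to −0.02 under median-ratio scaling. The largest differences were −7.76 ± 0.20 for *IGFBP4* (SE; adjusted p = 1.9e-08), −6.82 ± 0.15 for *IGFBP6* (adjusted p = 8.7e-09) and 3.92 ± 0.16 for *IGFBP2* (adjusted p = 1.7e-07), all by limma. Relative to the median of all genes, these 3 differences were −7.36, −6.42 and 4.32.

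Only 4 of the 10 genes divided the 6 samples of the first 3 lines from the 4 samples of DU145 and PC3 without overlap, beside 26.7% of all tested genes. These were *IRS1* (−2.53 ± 0.12; limma, adjusted p = 3.8e-07), *IGFBP2*, *IGFBP4* and *IGFBP6*, the last with a difference built in by the filter. *IGFBP5* differed by −3.16 ± 0.14 (limma, adjusted p = 2.5e-07), but DU145 was at most at 0.08 TPM, below DUCAP, and the difference was that of PC3. *IGF1R* differed by 1.65 ± 0.16 (limma, adjusted p = 2.1e-05), although LNCaP was at the level of PC3. *IGFBP3* differed by −1.63 ± 0.22 (limma, adjusted p = 1.7e-04), although VCAP was above DU145, and by −1.05 after quantile normalization. *IGF2R* differed by −0.81 ± 0.12 (limma, adjusted p = 2.6e-04), with LNCaP, its highest line, on the lower side. After quantile normalization the *IGF2R* difference was −0.27 (limma, adjusted p = 0.068). It was −0.36 under median-ratio scaling and −0.58 without mitochondrial genes, whose share was highest in DUCAP and VCAP. *INSR* (−0.16 ± 0.22; limma, adjusted p = 0.51) and *IRS2* (0.04 ± 0.18; adjusted p = 0.85) did not pass the test, and the signs of both turned under other settings.

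These p-values set the differences against the spread between repeats of these 5 lines. With whole lines as the units, the exact permutation test of 3 lines against 2 has 10 arrangements and cannot give a two-sided p below 0.1. That smallest value was reached by *IRS1*, *IGFBP2*, *IGFBP4* and *IGFBP6*, and the other genes had exact p-values from 0.3 (*IGF1R*) to 1 (*IRS2*).

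**Figure D4:**
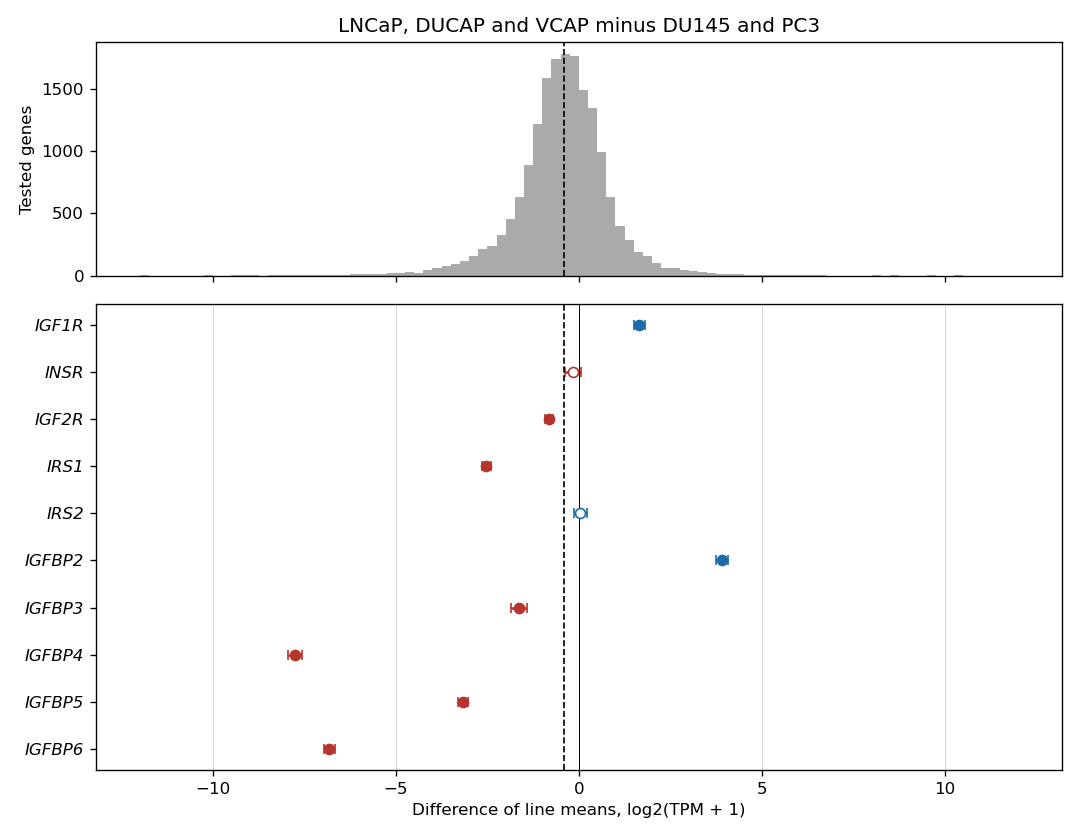
Difference between LNCaP, DUCAP and VCAP and DU145 and PC3 in log2(TPM + 1) (horizontal axis) as a histogram of all 17520 tested genes (top) and for each of the 10 genes with its SE as the bar (bottom, blue above 0 and red below, filled where adjusted p is under 0.05, the dashed line at the median of all tested genes). *IGFBP4* and *IGFBP6* lie far to the left, *IGFBP2* to the right, and *INSR* and *IRS2* near 0.

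Over all 10 pairs of lines, 68 of the 100 combinations of gene and pair differed by limma, beside 57.4% of all tested combinations. The counts of pairs include *IGFBP5* and *IGFBP6*, for which a difference between lines was built in by the filter. DUCAP and VCAP, which share a donor, were the closest pair, with 3 of the 10 genes called beside 26.7% of all tested genes. The 3 genes were *IGFBP3* (DUCAP minus VCAP −2.48 ± 0.34, log2, SE; limma, adjusted p = 3.1e-04), *IRS2* (−0.97 ± 0.28; adjusted p = 0.018) and *IGFBP4* (−0.88 ± 0.31; adjusted p = 0.038), all higher in VCAP. LNCaP differed from DUCAP in 5 genes (60.4% of all tested genes) and from VCAP in 6 (59.7%). For *IGF1R* LNCaP was lower than DUCAP by a log2 difference of −3.25 ± 0.24 (limma, adjusted p = 1.0e-05), and for *IGF2R* it was higher by 2.58 ± 0.18 (adjusted p = 6.9e-06).

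DU145 and PC3 differed in 7 of the 10 genes, beside 50.5% of all tested genes. PC3 was higher for *IGFBP3*, *IGFBP4*, *IGFBP5* and *IGFBP6*. DU145 was higher for *IGF1R* (1.57 ± 0.24, log2, SE; limma, adjusted p = 6.6e-04), *IRS2* (2.30 ± 0.28; adjusted p = 1.7e-04) and *IGFBP2*. The pairs across the division differed in 7 to 9 genes. LNCaP differed in 8 from DU145 (56.1% of all tested genes) and in 7 from PC3 (57.6%). DUCAP differed in 8 from DU145 (65.5%) and in 9 from PC3 (66.8%), and VCAP in 7 from DU145 (64.5%) and in 8 from PC3 (66.2%). *IGFBP3* and *IGFBP4* differed in 9 of the 10 pairs each, *IGFBP5* in 4 and *INSR* in 0.

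The repeats of DU145 stood further apart than those of the other lines. In DU145, 9 of the 10 genes were higher in repeat 1, *IGFBP6* being the exception, against 49.7% of all tested genes. The median absolute difference between the DU145 repeats was 0.58 on the log2 scale over the 10 genes and 0.32 over all tested genes, and in the other 4 lines it was at most 0.20 over the 10 genes. *INSR* and *IGFBP4* differed by at least 1 on the log2 scale between the DU145 repeats, as did 9.48% of all tested genes. The mitochondrial share was 22.5% in repeat 1 and 15.3% in repeat 2 of DU145. Without either DU145 repeat, *IGF1R*, *IGF2R*, *IRS1* and the 5 binding protein genes stayed on the same side of the threshold in the comparison of LNCaP, DUCAP and VCAP with DU145 and PC3.

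Among the 10 genes, *IGFBP4* and *IGFBP6* had the most similar profiles over the 10 samples, with Pearson's r of 0.99, followed by *IRS1* with *IGFBP4* (0.98) and *IRS1* with *IGFBP6* (0.97). *IGFBP2* was opposite to *IGFBP4* (−0.93), *IGFBP6* (−0.91) and *IGFBP5* (−0.89), and *IGF1R* was similar to *IRS2* (0.80). With 5 lines in repeats, the 10 samples carry little more than 5 profiles, so such values describe the order of the lines. Outside the pathway, the tested genes most like *IGF1R* were *PDE8B* (r = 0.99), *PXMP4* (0.985) and *MSL1* (0.984), all highest in VCAP and lowest in PC3 or LNCaP. *DGKQ* (0.997), *AC005332.4* and *NLRX1* were most like *IGF2R*, and *TNS3* (0.993), *MAFF* and *NTN4* were most like *IRS1*. *KLHL24* (0.922), *RHBDL1* and *FAM89B* were most like *INSR*, and *PXYLP1* (0.971), *ATOH8* and *AP001273.1* were most like *IRS2*.

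For the binding proteins, *ST14* (r = 0.994), which encodes the surface protease matriptase, *TLCD1* and *SEPTIN3* were most like *IGFBP2*. *RALGAPB* (0.961), *TAF2* and *GJB2* were most like *IGFBP3*. *AL590560.2*, *CTHRC1* (0.998) and *RND3* (0.998) were most like *IGFBP4*, and *LINC00857*, *TNFRSF6B* and *RIOX1* (0.999) were most like *IGFBP6*. All of these had line means of at most 0.465 TPM in LNCaP, DUCAP and VCAP. A gene found mainly in DU145 and PC3 scores high by that alone. Among the genes most like *IGFBP5*, *AC112721.1* and *FABP4* (0.998) had a mean of 0 TPM in each of the other 4 lines, so a gene found in PC3 alone scores high by that alone. Of these, *FABP4* reached a mean of 91.96 TPM in PC3.

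A wider list of 57 other genes of the pathway was examined beside the 10. All 57 were in the table and 44 were tested. Among the 5 lines 41 of the 44 (93.2%) differed by limma's F-test, beside 90.8% of all tested genes, and *SH2B1*, *H19* and *FOXO4* did not pass. In the comparison of LNCaP, DUCAP and VCAP with DU145 and PC3, 36 of the 44 (81.8%) differed, beside 74.4% of all tested genes, and 8 did not pass the test. Of the 36, 8 were higher and 28 lower, beside 22.5% and 51.9% of all tested genes, a division that over all genes turned to 6825 higher and 6019 lower under quantile normalization. The median difference of the list was −0.65 and the median range of line means was 2.03 on the log2 scale. By role, 12 of the 14 tested genes whose products act at the activated receptors (adaptors, exchange factors, ubiquitin ligases and inhibitors) were lower and 2 higher, 3 of 6 PI3-kinase subunits were lower and 2 higher, and 2 of 6 kinases were lower and 1 higher. All 3 tested genes that bind *IGF2* RNA or lie at its locus were lower. Of these, *IGF2BP2* and *H19* passed the filter only through DU145 and PC3, so a difference in this direction was built in for both. The same holds for *SOCS3* and, through PC3 alone, for *IGF2* among the genes counted as lower. *GPC3*, counted as higher, passed through LNCaP alone.

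Among the genes of that list with the widest range of line means, several stood out in 1 or 2 lines. Among the subunits of PI3-kinase, the kinase that the IRS adaptors recruit, *PIK3CD* (a catalytic subunit) was at 27.06 and 25.8 TPM in LNCaP, whereas DUCAP and VCAP had at most 0.31 TPM. The regulatory subunit gene *PIK3R3* was highest in LNCaP (51.22 and 49.86 TPM) and lowest in DU145 (4.31 and 2.99 TPM). *PIK3R1*, the gene of the p85 alpha regulatory subunit, was at 20.88 to 40.23 TPM in LNCaP, DUCAP and VCAP and at 2.57 to 6.59 TPM in DU145 and PC3, a log2 difference of 2.67 ± 0.14 (limma, adjusted p = 5.8e-07).

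Among the adaptors and their regulators, *GRB10*, which encodes an inhibitory adaptor of INSR and IGF1R, reached 125.63 and 155.8 TPM in LNCaP, whereas no other line exceeded 36.97 TPM. *SHC1*, an adaptor on the route to RAS, was at 969.45 and 474.49 TPM in DU145 and at most at 138.76 TPM elsewhere. *NEDD4*, a ubiquitin ligase, was likewise highest in DU145 (64.6 and 67.34 TPM), with at most 4.87 TPM elsewhere. *SOCS3*, a feedback inhibitor of cytokine and insulin signals, was at 30.94 and 5.24 TPM in DU145 and at 15.77 and 12.83 TPM in PC3, and at most at 0.21 TPM in the other 6 samples.

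The genes of *IGF2* RNA-binding proteins were highest in DU145 and PC3. *IGF2BP2* was at 32.76 and 39.99 TPM in DU145 and at 70.38 and 56.95 TPM in PC3, and at most at 0.54 TPM in the other lines (log2 difference −5.35 ± 0.12; limma, adjusted p = 1.1e-08). This gene passed the filter only through DU145 and PC3, so the direction was built in and the p-value adds no separate support. *IGF2BP3* was at 10.87 to 24.41 TPM in DU145 and PC3 and at 3.44 and 4.83 TPM in LNCaP, with at most 2.26 TPM in DUCAP and VCAP. *STC1*, whose product inhibits the IGFBP4 protease, was highest in DU145 (17.75 and 11.41 TPM) and at most at 4.22 TPM elsewhere. *STC2*, listed under the same role, was at 14.02 to 57.21 TPM over all 10 samples.

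**Figure D5:**
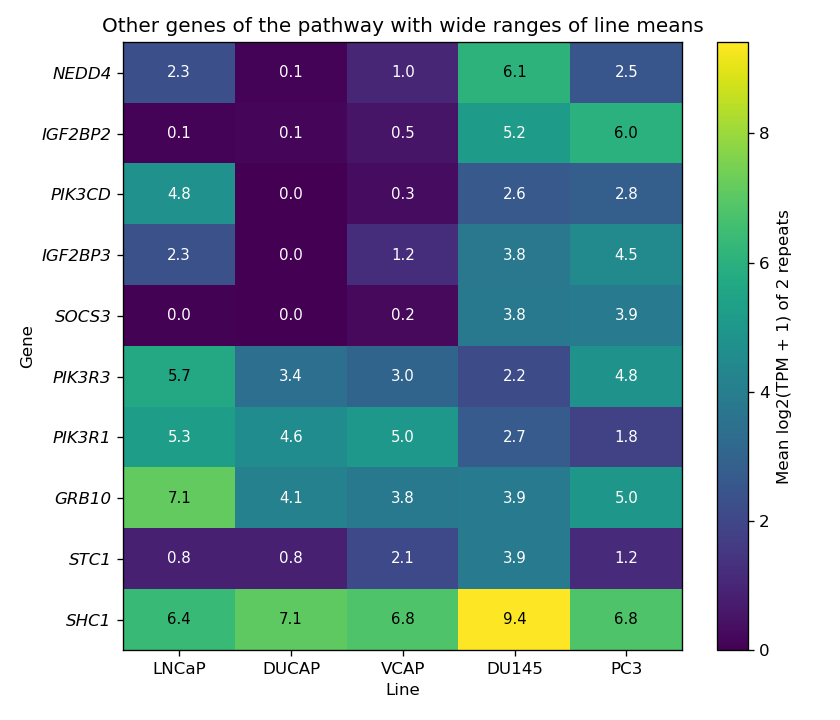
Mean log2(TPM + 1) of the 2 repeats (colour and printed value) of 10 genes of the wider pathway list with wide ranges of line means (rows) in the 5 lines (columns). LNCaP stands out for *GRB10* and *PIK3CD*, DU145 for *SHC1* and *NEDD4*, and DU145 and PC3 for *IGF2BP2* and *SOCS3*.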

How the data were processed

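Libraries of polyA-enriched, strand-specific RNA from 10 samples were sequenced by the authors. Per the labels, reads were checked with FastQC 0.11.9, trimmed with Trim Galore 0.6.5, aligned with STAR 2.7.2b to GRCh38 and quantified per gene with RSEM 1.3.3. The authors deposited RSEM's TPM for 60642 symbols, not pooled over repeats, and how rows sharing a symbol were merged is not given in the sources used here. Counting intervals and detection floors were not computed, because TPM do not hold the number of reads, and precision comes from the 2 repeats of each line. The groups and repeat numbers were taken from the labels, which call the repeats biological, with no statement that cultures were started separately, so p-values measure only the spread between these samples.

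Values were put on the log2(TPM + 1) scale, which appears in the study's methods. All genes that reached 1 TPM in 2 or more samples were fitted by limma 3.58.1 (R 4.3.3) on a design with a term for each line and a trended prior, and p-values were adjusted by Benjamini-Hochberg with a threshold of 0.05. The F-test over 4 degrees of freedom, the contrast of equally weighted line means and the 10 pairs of lines (adjusted over genes and pairs together) came from this fit. It was tested on simulated data in which a small part of the genes changed and all lines had the same spread. The simulation therefore does not cover lines of unequal spread or a change in most genes. The members, the wider list and the tests were chosen with earlier results of these data known. Named genes were all 10 members, every ligand, the 12 genes of the wider list with the largest range of line means, and for each member the 3 tested genes outside both lists with the highest Pearson's r. Some genes that this rule names are not reported here. Other genes of the wider list were named after their values were seen, and markers came from a set list. Coordinates and promoter windows were taken from RefSeq (GRCh38.p14, 10 of 10 matched by symbol), with the window at the MANE Select start found by matching to GENCODE transcripts. Results were recomputed with other pseudocounts, filters, scalings and prior variances, with the repeat number as a covariate, with a minimum change, and without each sample. Summaries and figures were made in Python 3.11.15 with pandas 2.3.3, numpy 2.4.6 and matplotlib 3.10.9.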

Additional observations from a re-analysis of the deposited data

Results flagged for a closer look

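In each of the 10 genes, the samples of LNCaP, DUCAP and VCAP and those of DU145 and PC3 were examined for a single far value by Dixon's criterion. Chance alone meets it in about 1 in 20 sets whose values come from 1 population. The sets here pool different lines in repeats, so that rate does not hold for them. Of the 20 sets, 2 met it. *INSR* in DU145 repeat 2 was at 1.89 on the log2(TPM + 1) scale, below the other 3 samples of DU145 and PC3. *IGFBP5* in DUCAP repeat 2 was at 0.59, above the other 5 samples of LNCaP, DUCAP and VCAP, at a level of 0.51 TPM.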

How the results depend on the processing

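Of the 190 values from 19 alternatives for the 10 genes in the comparison of LNCaP, DUCAP and VCAP with DU145 and PC3, 179 kept their direction and side of the threshold. *IGF1R*, *IRS1*, *IGFBP2*, *IGFBP3*, *IGFBP4*, *IGFBP5* and *IGFBP6* did so in all 19. The difference of *INSR*, −0.16 as reported, became 0.39 under quantile normalization, 0.23 under median-ratio scaling, 0.041 without mitochondrial genes and 0.12 without DU145 repeat 1, and it passed the test without DU145 repeat 2 (−0.45; limma, adjusted p = 0.014). That of *IRS2*, 0.04 as reported, became −0.05 without VCAP repeat 1, −0.15 without DU145 repeat 2 and −0.06 without PC3 repeat 2, and it passed under quantile normalization (0.53; limma, adjusted p = 0.019). *IGF2R* did not pass under quantile normalization or with a minimum change of 1 on the log2 scale. The causes were not tested.

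Over all genes, 13033 differed in this comparison, 3826 with the minimum change of 1, and 11895 to 13446 with 1 sample left out. The genes called were 3940 higher and 9093 lower, and 6825 higher and 6019 lower under quantile normalization. Of the called genes, 30.2% were higher as reported, 47.9% under median-ratio scaling and 38.7% without mitochondrial genes. Leaving out samples gave 14994 to 16409 genes among the 5 lines, 89207 to 108874 calls over the pairs, 62 to 73 of the 100 combinations of member and pair, 9 to 10 members among the lines and 8 to 9 in the comparison of the line sets. With 1 sample left, a line was assumed to vary like the others.

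The repeat numbers showed no pairing of the samples. Same-numbered repeats of different lines deviated from their line means with a mean correlation of 0.00922 (−0.191 to 0.249 over 10 pairs of lines). The sample titles also carry other numbers, which differ from the repeat numbers in DU145 and PC3. Pairing by those numbers was not examined. With the repeat number as a replicate block, 15953 genes differed among the lines, against 15913 without it, and 13007 in the comparison of the line sets, and no member's call changed. TPM give no depth, so values near 0 have unknown counting error.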
